A study of Mus musculus with 18 samples.

Results

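Embryonic stem (ES) cells of the mouse AB1 line with both copies of Cyp26a1 disrupted were compared after 72 h in retinoic acid (RA) and without RA. The comparison took in 5 of the 18 arrays of the series, chosen by their labels. The tested cells were knockout cells given 100 nM RA together with leukemia inhibitory factor (LIF) for 72 h (2 arrays), and their controls were knockout cells given the control treatment with LIF for 8 h (3 arrays). Arrays of the same knockout cells after 8 h of 100 nM RA with LIF (3 arrays) and of wild-type AB1 cells after 72 h of 100 nM RA with LIF (2 arrays) and under control treatment with LIF for 8 h (3 arrays) were used beside them. Wild-type AB1 cells after 8 h of 100 nM RA with LIF (3 arrays) entered the statistical fit as well. For each genotype an array under control treatment without LIF for 8 h was used in checks of the LIF labels. Controls were taken at 8 h and not at 72 h, and RA and the longer culture therefore cannot be told apart in any value below. The labels do not say how many knockout clones were used, or whether repeats came from separate cultures.

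RA is the active derivative of vitamin A. It binds nuclear receptors that sit on DNA as pairs of a retinoic acid receptor and a retinoid X receptor and, once bound, raise transcription of nearby genes such as those of the Hox clusters. CYP26A1 is a cytochrome P450 that oxidises RA and so clears it from the cell, and its gene is itself switched on by RA. LIF is the cytokine that holds mouse ES cells undifferentiated through STAT3. Mouse ES and embryonal carcinoma cells given RA are known for turning into extraembryonic endoderm, the tissue that lays down the basement membrane around the early embryo, or into neural cells, depending on the culture.

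Each sample was measured on 1 single-colour Affymetrix array, and values are MAS5 signal intensities in arbitrary units after each array was scaled to a trimmed mean of 500. Signals under 50 were set to 50 before log2 was taken, and between 42.3% and 47.3% of the probe sets of the 5 arrays lay under that floor. Log2 differences are of floored values, so where a group lies partly or wholly under 50 their size depends on the floor. Testing was limited to the 11388 of 18194 genes with a signal of 100 or more on 2 or more of the fitted arrays, and a gene is called changed where limma's Benjamini-Hochberg adjusted p over all of them was under 0.05. The 2 arrays of RA-treated cells differed from each other by a standard deviation of 0.373 on the log2 scale, and pairs of control arrays by 0.371 to 0.464. Between the groups that figure was 0.733 to 0.768.

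The library labelled as knockout control replicate 1 went against its LIF label. Socs3, the feedback inhibitor that STAT3 induces, read 4058 and 4432 in the RA-treated cells and 215, 6001 and 5722 in the controls, where the low value is replicate 1. On the array labelled as knockout control without LIF it read 4551. Replicate 1 also stood apart for Otx2 (1352, against 215 and 120 on the other controls), Stat3 (351, against 1519 and 2983) and Lama1 (272, against 1875 and 1811). It was kept under its label. Counts without it, or with the labels of the replicate 1 control arrays exchanged, are given for the main comparison and for some lists and genes.

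The labelled cell type was checked against markers. The 6 markers of undifferentiated ES cells were bright in both groups, with Sox2 and Zfp42 called slightly lower. Pou5f1 read 13482 and 13715 in the RA-treated cells and 13334, 15753 and 10982 in the controls, and Nanog 9027 and 9279 against 5458, 8287 and 10678. Their summed signal was 62491 to 69353 in RA-treated cells and 64079 to 74381 in controls. Of 7 extraembryonic endoderm markers, 6 rose, and the sum of all 7 was 16680 to 16988 against 1678 to 3718. Most of the RA-treated sum came from Col4a1 (8294 and 7330) and Lama1 (3818 and 4093), and Lama1 was the marker not called. The lowest control sum is that of replicate 1. Of 7 markers of fibroblast feeder cells, Col1a1, Col3a1, Postn, Dcn and Lum lay under 50 on all 5 arrays. Col1a2 read 19.2 and 97.7 in RA-treated cells and 25.8, 74.9 and 39.5 in controls. On fitted arrays outside these 5, signals reached 302 for Col1a1, 432 for Col1a2, 253 for Col3a1 and 210 for Dcn. The low values of the 5 arrays therefore do not speak for the other arrays. Thy1 read 143 and 111 against 611, 452 and 480 and was called lower. The neural markers summed to 1189 to 1387 in RA-treated cells and 823 to 1133 in controls, with Sox1 called higher. The 4 trophoblast markers summed to 257 to 310 against 202 to 461. Only Eomes of these was bright enough to test, and it was not called.

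RA-treated knockout cells differed from their controls in 2622 genes (23% of those tested), with 1681 higher (14.8%) and 941 lower (8.26%). Counts for the gene lists below are to be read beside these shares. Rises were the larger changes: 916 called genes were at least 2-fold higher and 187 at least 4-fold, against 272 and 49 lower. At 8-fold the counts were 44 higher and 7 lower, and all 14 genes past 16-fold were higher. Every RA-treated array lay above every control array for 3501 genes (30.7%) and below for 2408 (21.1%). The median log2 difference of all tested genes was 0.056 and the median standard error 0.22. Without control replicate 1 the count was 2140. With the replicate 1 LIF labels exchanged it was 2870, of which 2418 were among the 2622. Leaving out either RA-treated array gave 1488 (without replicate 1) and 1358 (without replicate 2).

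**Figure D1:**
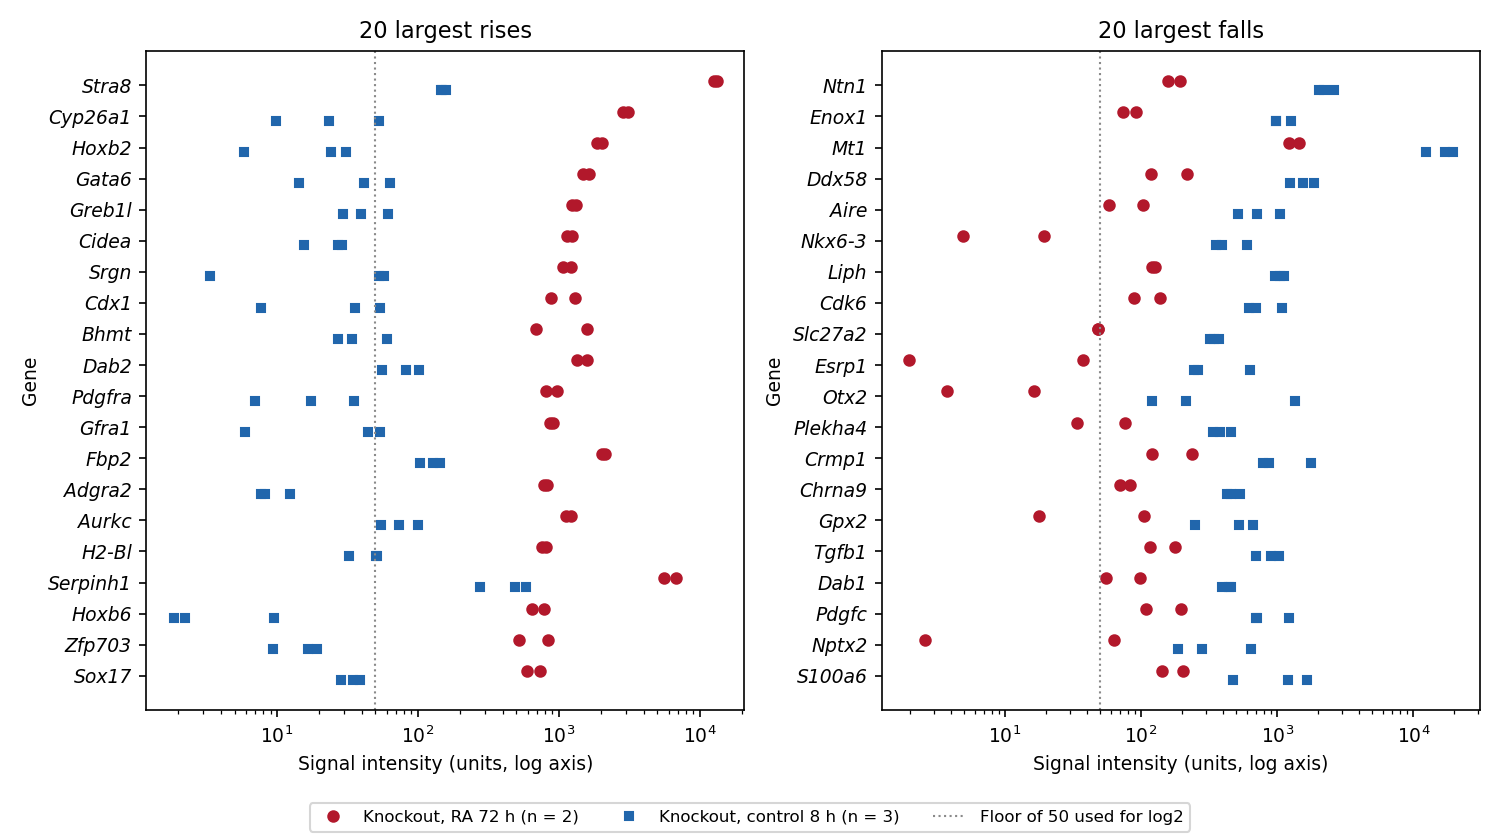
Signal intensity (log axis) on each of the 2 knockout RA 72 h arrays (circles) and 3 knockout control arrays (squares) for the 20 genes with the largest called rise and the 20 with the largest called fall among genes whose groups do not overlap. Stra8 reached 13279 and 12608 in RA-treated cells, against 146 to 158 in controls, and Ntn1 read 192 and 159 against 2039 to 2622.

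The disrupted gene itself gave a large rise. Cyp26a1 signal was 2873 and 3075 in the RA-treated knockout cells and 52.6, 9.81 and 23.3 in their controls (log2 difference of floored values 5.87 ± 0.32 SE, adjusted p = 2.14e-08). As 2 of the 3 controls lay under 50, the size of that difference is set largely by the floor. Wild-type cells read 3402 and 3211 at 72 h of RA and 17.5, 84.2 and 71.9 under control treatment, and the test of the difference between the knockout and wild-type changes made no call (adjusted p = 1). The sources used here do not say whether the probes match sequence kept in the knockout allele, so this signal does not check the genotype and says nothing of working enzyme. Samples are bulk RNA, in which more cells of a type and more RNA per cell cannot be told apart.

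Promoter stretches of Cyp26a1, Rarb and Stra8 are shown because these genes rose together and their promoters hold the repeat that RA receptors are known to bind. Windows from 250 bases before to 50 after each RefSeq gene start (GRCm38.p6) were searched on both strands for DR5 and DR2, direct repeats of the 6-base receptor half-site with 5 or 2 bases between the copies. Each stretch reads 5′ to 3′ along the gene's strand, and capitals mark the matched repeat.
Cyp26a1 (chr19:37697736-37697807, + strand, DR5 on the opposite strand, from 32 to 15 bases before the start): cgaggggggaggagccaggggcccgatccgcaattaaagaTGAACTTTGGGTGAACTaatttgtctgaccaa
Rarb (chr14:16575477-16575569, − strand, DR5 on the gene's strand, from 53 to 36 bases before the start): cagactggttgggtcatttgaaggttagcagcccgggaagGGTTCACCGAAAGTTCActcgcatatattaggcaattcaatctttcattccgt
Stra8 (chr6:34920706-34920799, + strand, DR2 on the gene's strand, from 202 to 188 bases before the start): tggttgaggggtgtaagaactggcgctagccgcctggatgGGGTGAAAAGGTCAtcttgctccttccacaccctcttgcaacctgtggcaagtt
None of the 3 matches overlapped a match of the other repeat. DR5 was present in 3 of 1343 promoters of genes called higher (0.223%), 1 of 769 of genes called lower (0.13%), 22 of 9273 of all tested genes (0.237%) and 102 of all 27025 promoters (0.377%). DR2 was present in 2 (0.149%), 4 (0.52%), 34 (0.367%) and 148 (0.548%). A match is a description of letters, not of a bound site.

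Of the RA-induced target genes, 15 of 17 tested rose and none fell, with a median log2 difference of 2.99 against 0.056 over all genes. Of the 17, 3 reached the filter only with the 72 h arrays of either genotype, as did 554 of all 11388 tested genes. Those 3 had to be high there to be tested, so the count and median are a description. Stra8, a gene that RA switches on in germ cells before meiosis, made the largest log2 difference of floored values: 13279 and 12608 in RA-treated cells against 148, 158 and 146 in controls, 85.8-fold (log2 6.42 ± 0.30, adjusted p = 3.57e-09). Controls of Cyp26a1 and Hoxb2 lay mostly or wholly under the floor, so the order of these 3 genes by fold is not settled. Cdx1, a caudal homeobox factor of axial patterning, read 1292 and 875 against 7.67, 35.5 and 53.5 (log2 4.38 ± 0.45, adjusted p = 7.13e-06). Zfp703, a zinc-finger repressor, read 838 and 522 against at most 19.2 in the controls, a rise of at least 13.2-fold. Meis2, which codes for a Hox cofactor, stood at 594 and 511 against 79.8, 9.12 and 65.5 (log2 3.11). Pbx2 and Rai14 were not called, at log2 differences of 0.66 and 0.12. All 15 calls held when any 1 of the 5 arrays was left out.

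Of the retinoid handling genes, 8 of 10 tested were higher and none lower. Cyp26a1, Cyp26b1, Dhrs3, Stra6 and Crabp2 are also in the RA-induced list, so the counts overlap. Of the 10, 1 reached the filter only with the 72 h arrays of either genotype. Cyp26b1, the sister enzyme of CYP26A1 that also breaks down RA, read 321 and 294 in RA-treated cells and 26.7, 41.4 and 52.2 in controls (log2 2.60 ± 0.20, adjusted p = 4.13e-07). Dhrs3, a reductase that returns retinal to retinol, read 610 and 593 against 77.6, 17.7 and 7.73 (log2 3.38 ± 0.27). Stra6, the membrane receptor for the retinol carrier, read 492 and 334 with every control under 25, a rise of at least 8.12-fold. The carrier itself, Rbp4, rose to 397 and 391 against 143, 169 and 150. Crabp2, which delivers RA to its nuclear receptors, read 2216 and 2110 against 267, 472 and 386, and Crabp1, its relative linked to RA clearance, 290 and 358 against 98, 171 and 151. The call for Crabp1 was lost without RA-treated array 2 (adjusted p = 0.0727). Aldh1a1, Aldh1a2 and Aldh1a3, the enzymes that make RA from retinal, were too dim to be tested.

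Among RA receptors and cofactors, 3 of 11 rose and 1 fell, beside 14.8% higher and 8.26% lower of all tested genes. Rarb and Nrip1 are also in the RA-induced list. Rarb, a receptor gene under RA's own control, read 346 and 310 in RA-treated cells and 29.1, 13.1 and 1.78 in controls, at least 6.55-fold higher (log2 2.71, adjusted p = 4.85e-07). Rara (298 and 307 against 265, 280 and 433) and Rarg (1882 and 2164 against 1853, 1670 and 1847) were not called. Nrip1, a corepressor of liganded nuclear receptors, read 1533 and 1523 against 290, 239 and 270, although with the median of its probe sets the difference was 1.32 and not called (adjusted p = 0.118). Nr6a1, an orphan receptor of the early embryo, rose by 0.96, again lost with the median of its probe sets (adjusted p = 0.123). The coactivator Ncoa1 fell by 0.60 on the log2 scale, a call that was lost when any 1 of the 5 arrays was left out (adjusted p from 0.0836 to 0.286).

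Hox genes, which RA is known to open from the 3′ end of each cluster, were called higher for 13 of 16 tested Hox and Cdx genes with none lower, at a median log2 difference of 2.84. Hoxb1 and Cdx1 are also in the RA-induced list. Of the 16, 11 reached the filter only with the 72 h arrays of either genotype, so they had to be high there to be tested, and their count and median are a description. The other 8 of 24 on the array were too dim to be tested: Hoxa2 (157 and 51.2 in RA-treated knockout cells), Hoxb7 (19.9 and 25), Hoxc8 (12.7 and 21.2), Cdx2 (24.7 and 46.2), Cdx4 (35.3 and 24.9) and 3 HoxD genes. In the HoxB cluster all 7 tested members were higher. Hoxb2 read 1870 and 2023 in RA-treated cells and 31.1, 24.1 and 5.82 in controls, at least 38.9-fold higher (log2 5.28 ± 0.46, adjusted p = 1.44e-06). Hoxb4 read 813 and 797 against 62.7, 72.2 and 53, and Hoxb6 780 and 646 against at most 9.47. Hoxb3 (486 and 498), Hoxb5 (513 and 326) and Hoxb1 (320 and 372) also stood clear of controls that were all under 50. Hoxb9, the most 5′ member tested, was dimmer at 97.0 and 135 against 23.4, 47.1 and 58.6, and its call was lost without RA-treated array 2 (log2 0.88, adjusted p = 0.118).

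In HoxA, 3 of 5 tested genes rose. Hoxa4 read 751 and 461 against 33.9, 3.58 and 3.57, Hoxa7 364 and 379 against 15.3, 23.8 and 21.5, and Hoxa3 305 and 267 against 18.2, 58.9 and 56.7. Hoxa5 (247 and 240 against 217, 191 and 166) and Hoxa9 (166 and 155 against 40.4, 31.3 and 124) were not called on their brightest probe set, but were with the median of their probe sets (log2 3.01 and 2.47). In HoxC, Hoxc4 read 116 and 135 with all controls under 5, and Hoxc5 85.3 and 81.9 against 40.9, 17.2 and 20. The call for Hoxc5 was lost without either RA-treated array (adjusted p = 0.101 and 0.0801) and Hoxc6 was not called. Of HoxD, 3 genes are on the array and none was bright enough to test, the highest RA-treated signal being 49.7 for Hoxd1.

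**Figure D2:**
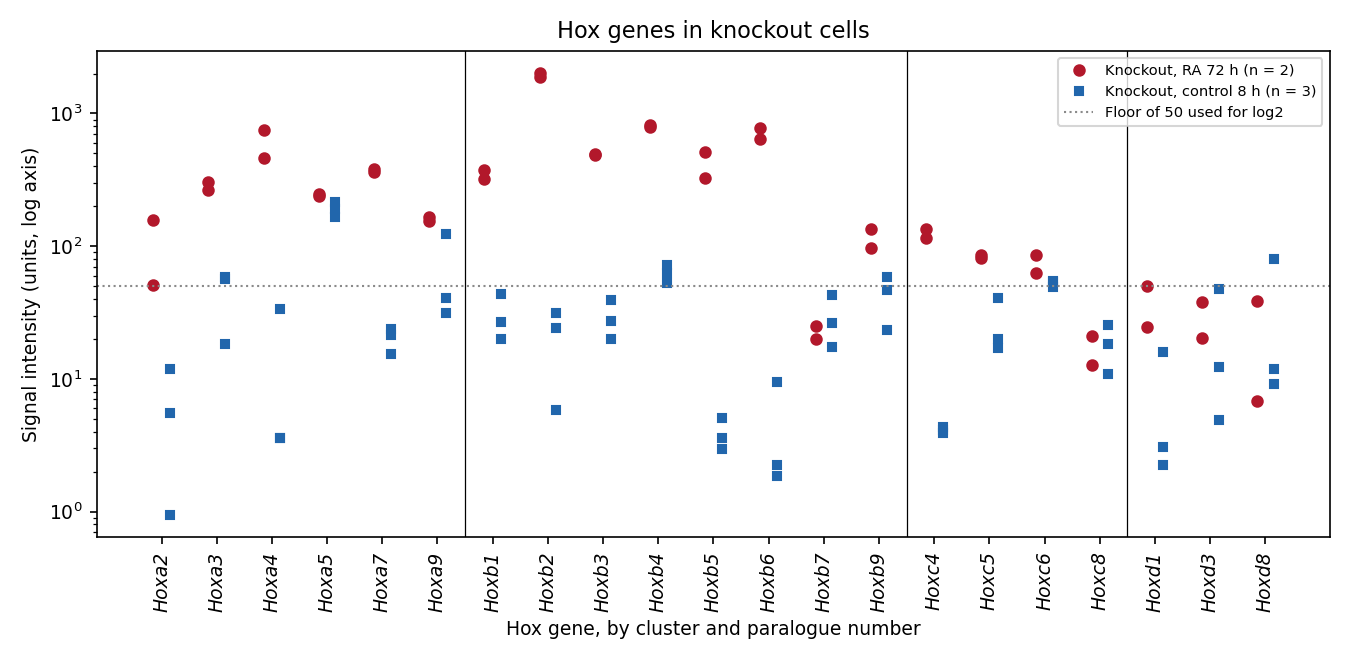
Signal intensity (log axis) of the Hox genes on the array, ordered by cluster and paralogue number, on the 2 knockout RA 72 h arrays (circles) and the 3 knockout control arrays (squares). Hoxb2 was brightest at 1870 and 2023, and no HoxD gene exceeded the floor of 50 in RA-treated cells.

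Transcription factors and receptors of extraembryonic endoderm rose: 9 of 10 tested were higher, none lower, with a median log2 difference of 3.02. Of the 10, 2 reached the filter only with the 72 h arrays of either genotype, so the count and median are a description. Gata4, Gata6, Sox7, Sox17 and Dab2 were also used in the marker check above, which is therefore not a separate result. Gata6, the factor that starts the primitive endoderm programme, read 1636 and 1472 in RA-treated cells and 14.4, 63.9 and 41.2 in controls (log2 4.84 ± 0.37, adjusted p = 4.13e-07). Its partner Gata4 read 404 and 492 against 17.9, 63.5 and 20.4 (log2 3.04). Pdgfra, the growth factor receptor of primitive endoderm, read 805 and 963 with all controls under 36, at least 17.6-fold higher. Sox17 stood at 593 and 736 against 39.0, 28.3 and 34.4, and Sox7 at 902 and 982 against 34.1, 259 and 186. The Sox7 call was lost without RA-treated array 2 (adjusted p = 0.0575).

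Dab2, an endocytic adaptor needed in endoderm, read 1341 and 1575 against 81.8, 101 and 55.8 (log2 4.23 ± 0.67, adjusted p = 0.000337). The forkhead genes Foxa1 (485 and 330 against 31.4, 30.1 and 4.59), Foxq1 (270 and 414 against 9.42, 63.0 and 41.6) and Foxa2 (130 and 143 against 46.4, 11.5 and 39.6) rose too. Hnf4a, a factor of visceral endoderm and liver, was the member not called, at 38.7 and 79.5 against 16.2, 61.3 and 83.4. Among products of visceral endoderm, the endocytic receptor genes Cubn (log2 3.44, adjusted p = 0.000573) and Amn (log2 2.31, adjusted p = 0.000392) rose, Apoe fell by 1.81, and the remaining 4 of 7 tested were not called. Afp, Ttr and Apoa1, secreted products of visceral endoderm, were too dim to be tested.

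Basement membrane genes and the enzymes that process collagen followed, with 9 of 17 tested higher and 1 lower (median log2 1.78). Of the 17, 1 reached the filter only with the 72 h arrays of either genotype. Col4a1, a chain of the collagen of basement membranes, read 8294 and 7330 in RA-treated cells and 1218, 1130 and 1569 in controls (log2 2.59 ± 0.33, adjusted p = 6.16e-05). Its partner chain Col4a2 read 2819 and 2064 against 386, 301 and 567. Serpinh1, the chaperone of newly made collagen, made the largest change of the set: 5612 and 6756 against 274, 490 and 584, 14.4-fold (log2 3.85 ± 0.30, adjusted p = 4.85e-07).

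The collagen prolyl hydroxylase subunits P4ha1 (566 and 677 against 172, 197 and 171) and P4ha2 (726 and 745 against 114, 88.2 and 102) rose, as did Lamb1, a laminin chain (3084 and 3132 against 782, 836 and 559). Pth1r, the hormone receptor known from parietal endoderm, read 238 and 167 with all controls under 26. Lama1, the laminin chain of embryonic basement membranes, read 3818 and 4093 against 272, 1875 and 1811. It was not called (adjusted p = 0.0616), and with the replicate 1 LIF labels exchanged its difference was 1.16 and called (adjusted p = 0.000539). The lower member was Fst, an activin inhibitor, at 49.2 and 50.6 against 147, 144 and 161, and its call was lost with a floor of 100 (adjusted p = 0.101).

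**Figure D3:**
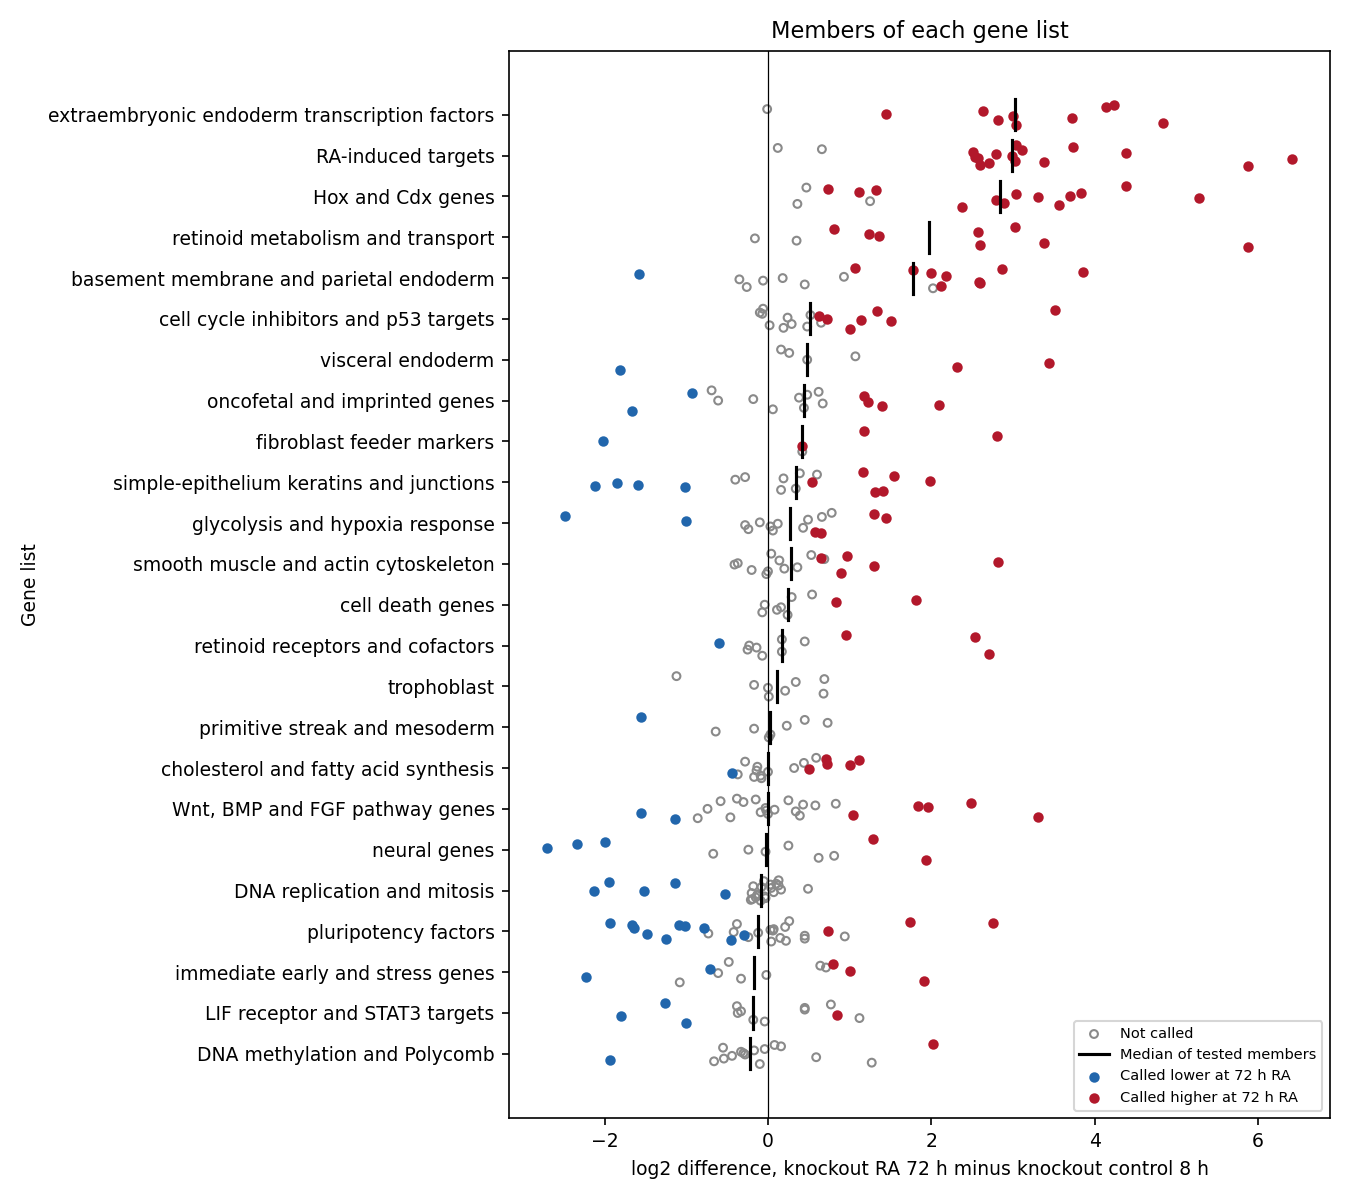
Log2 difference, knockout RA 72 h minus knockout control, of each tested member of 24 gene lists (filled points, called higher or lower; open points, not called; bar, median of the tested members). Endoderm factors (median 3.02), RA-induced targets (2.99) and Hox and Cdx genes (2.84) lie to the right of 0, and the pluripotency list has its median at −0.12.

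Pluripotency genes split. Of 29 tested, 10 fell, 3 rose and 16 were not called, and the median was −0.12. With the replicate 1 LIF labels exchanged 12 fell, and without control replicate 1 the number was 9. Over all tested genes 8.26% fell and 14.8% rose. The largest fall was that of Dnmt3l, the cofactor of de novo DNA methylation, at 2183 and 2550 in RA-treated cells and 11090, 7778 and 8353 in controls (log2 −1.93 ± 0.20, adjusted p = 6.4e-06). Lin28a, an inhibitor of let-7 processing, read 950 and 994 against 2496, 2865 and 4054, and Fgf4, the ES cells' own growth factor, 1432 and 1373 against 5285, 4091 and 3852. Nr0b1 read 2503 and 1985 against 7821, 4699 and 6506, and the TGF-β family ligand Gdf3 2125 and 2030 against 4336, 4471 and 3837.

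Pou5f1, Nanog, Klf4 and Esrrb were not called, with log2 differences of 0.04, 0.22, 0.45 and −0.24. Control replicate 1 was the lowest control for Nanog (5458, against 8287 and 10678) and Klf4 (4127, against 8573 and 10115). Sox2 (9769 and 8252 against 12167, 11982 and 12583) and Zfp42 (20248 and 18439 against 23260, 23816 and 23653) were called lower by 0.45 and 0.29, and both calls were lost when any 1 of the controls was left out (adjusted p from 0.0532 to 0.0835). The NODAL inhibitor gene Lefty1 went the other way, at 3408 and 3060 against 625, 344 and 506 (log2 2.76 ± 0.21, adjusted p = 3.89e-07), and the related inhibitor gene Lefty2 stood at 838 and 492 against 230, 190 and 164 (log2 1.74). Leaving out RA-treated array 2 reduced the number of falling pluripotency genes to 5.

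LIF receptor and STAT3 target genes gave 1 higher and 3 lower of 13 tested, beside 14.8% higher and 8.26% lower of all tested genes. With the replicate 1 LIF labels exchanged 4 were lower, and without control replicate 1 the number stayed at 3. Socs2 read 1412 and 970 in RA-treated cells against 5213, 4131 and 3134 in controls (log2 −1.80, adjusted p = 8.67e-05), and Lifr, a subunit of the LIF receptor, 964 and 1095 against 1744, 2359 and 2103. Sgk1, a survival kinase, was called lower at 4899 and 4257 against 5950, 14705 and 14935, where the low control is replicate 1. Pim1 was called higher by 0.85, which was lost without RA-treated array 2 (adjusted p = 0.149). The call for Sgk1 was lost without control replicate 2 or 3 (adjusted p = 0.076 and 0.0714) and without either RA-treated array.

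Genes that hold back the cell cycle or respond to p53 were higher for 7 of 17 tested, with none lower. Over all tested genes 14.8% were higher and 8.26% lower. Gas1, a growth arrest gene at the cell surface, read 709 and 458 in RA-treated cells and 50.2, 12.5 and 11.0 in controls (log2 3.51 ± 0.40, adjusted p = 1.65e-05). Ccng1, a cyclin induced by p53, read 8894 and 7521 against 3421, 2542 and 2704 (log2 1.51), and Trp53inp1, a p53-induced stress protein gene, 5051 and 6394 against 2625, 2089 and 2082. Cdkn1a, which codes for the inhibitor p21, read 665 and 943 against 387, 440 and 364, a call that was lost without RA-treated array 2 (adjusted p = 0.0611). Without that array 3 genes of the list were called higher.

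Of 25 genes of DNA replication and mitosis, 5 fell, none rose and 20 were not called, beside 8.26% lower and 14.8% higher of all tested genes. Ccnd1, cyclin D1, read 609 and 881 in RA-treated cells against 2986, 2939 and 3762 (log2 −2.13 ± 0.23, adjusted p = 9.41e-06), and Mycn 816 and 815 against 2569, 3595 and 3337 (log2 −1.94). Myc (1629 and 1272 against 3317, 2701 and 3544) and the cyclin E gene Ccne1 (4267 and 1698 against 7806, 7349 and 7968) were called too, but lost without RA-treated array 2 (adjusted p = 0.0634 and 0.119). Rrm2, a subunit of the enzyme that makes deoxynucleotides, fell by 0.53. Pcna (26216 and 25977 against 31072, 28736 and 26289) and Cdk1 (5830 and 6035 against 6166, 5568 and 5619) were among the genes not called.

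Epithelial genes went both ways: of 17 keratin and junction genes, 6 rose and 4 fell, beside 14.8% and 8.26% of all tested genes. Of the 17, 3 reached the filter only with the 72 h arrays of either genotype. The keratin genes Krt8 (2179 and 1715 against 756, 758 and 830) and Krt18 (977 and 923 against 418, 279 and 392) were called higher, while Epcam, an adhesion molecule of epithelia and ES cells, read 1138 and 1416 against 5178, 3727 and 4970 (log2 −1.85, adjusted p = 2.01e-05). The tight junction genes Cldn6 and Cldn4 fell by 2.12 and 1.02 and Tjp1 rose by 0.54. Zeb1, a repressor of epithelial genes, read 1056 and 843 against 456, 443 and 372. Cdh1, E-cadherin, was not called at 5966 and 6095 against 8501, 8019 and 7362. Without RA-treated array 1, the calls for Krt8 (adjusted p = 0.0744), Krt18 (0.0787) and Cldn6 (0.085) were lost, and that for Krt18 also without array 2 (0.0664). The list then held 2 higher and 2 lower genes without array 1.

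Of 11 tested neural genes 2 rose and 3 fell, beside 14.8% and 8.26% of all tested genes. Sox1 read 343 and 305 in RA-treated cells against 64.2, 97.5 and 98.4, Irx3 was called higher by 1.29, and Pou3f1 read 89.9 and 123 against 629, 284 and 417. Sox11 and Otx2 were the others called lower, and both of their calls were lost when RA-treated array 2 was left out (adjusted p = 0.0531 and 0.0897), as was that of Irx3 without array 1 (adjusted p = 0.148). Of 8 streak and mesoderm genes tested, Bmp4 fell (1658 and 2447 against 5266, 7159 and 5475) and none rose. None of 8 tested trophoblast genes was called, the largest differences being −1.12 for Ascl2 and 0.69 for Esx1, and 5 of 13 trophoblast genes on the array were too dim to be tested.

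Signalling genes of the WNT, BMP and FGF pathways were called higher for 5 of 25 and lower for 2, with a median of 0, shares near the 14.8% and 8.26% of all tested genes. Dkk1, a secreted WNT inhibitor, read 649 and 614 in RA-treated cells against 57.5, 89.0 and 49.7 (log2 3.31 ± 0.45, adjusted p = 9.85e-05). Fgfr2, an FGF receptor, read 404 and 422 against 65.6, 88.5 and 69.5, the inhibitory SMAD gene Smad6 341 and 291 against 84.9, 101 and 80.0, and the BMP-responsive homeobox gene Msx2 243 and 253 against 72.9, 63.2 and 55.4. Axin2, a WNT target, was called lower by 1.14, which was lost without RA-treated array 2 (adjusted p = 0.203).

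Imprinted and oncofetal genes included the growth factor Igf2, at 672 and 763 against 115, 161 and 257 (log2 2.09 ± 0.32, adjusted p = 0.000267). Hmga2, an architectural chromatin protein, read 1529 and 1578 against 502, 619 and 659 and Grb10, an adaptor that restrains growth, 5325 and 6203 against 2188, 2464 and 2780. Both calls were lost with the median of their probe sets (adjusted p = 0.165 and 0.311). In that list 4 of 15 rose and 2 fell, beside 14.8% and 8.26% of all tested genes. Of 16 DNA methylation and Polycomb genes, Bmi1, a subunit of Polycomb complex PRC1, rose (775 and 706 against 169, 218 and 164) and Dnmt3l fell. Dnmt3a read 3602 and 2692 against 3303, 808 and 814, where the high control is replicate 1, and was not called.

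Glycolysis and hypoxia genes gave 4 higher and 2 lower of 16, with Ndrg1, a hypoxia-induced gene, at 110 and 83.2 against 425, 567 and 631 (log2 −2.48, adjusted p = 5.04e-06). With the replicate 1 LIF labels exchanged, 7 of that list were higher and 3 lower. Without RA-treated array 2 none of that list was called higher. Cholesterol and fatty acid genes gave 5 higher and 1 lower of 17, among them the desaturase genes Scd1 (log2 1) and Scd2 (log2 0.72). As 14.8% of all tested genes were called higher and 8.26% lower, the small counts of the lists in this paragraph are descriptions. Immediate early and stress genes gave 3 higher and 2 lower of 12: Jun read 217 and 256 against 29.0, 31.5 and 99.1, and Egr1 164 and 168 against 469, 1000 and 995. Of 9 cell death genes, Pmaip1 and Bbc3, both p53 targets, were called higher, and both calls were lost without either RA-treated array (adjusted p from 0.0809 to 0.145). Of 5 tested fibroblast genes 3 rose and 1 fell, with the growth factor receptor Pdgfrb at 504 and 305 against 32.1, 31.6 and 71.4 and the surface protein Thy1 at 143 and 111 against 611, 452 and 480, while 5 collagen and matrix markers of that type lay at the floor as given above.

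The remaining large rises covered genes outside these lists. Greb1l read 1247 and 1318 in RA-treated cells against 61.3, 29.3 and 39.6, and Cidea, a protein of lipid droplets, 1231 and 1134 against at most 29.0. Gfra1, the receptor for GDNF, stood at 905 and 866 against 53.6, 5.97 and 44.6. Bhmt, an enzyme that remakes methionine, was uneven at 1588 and 684 against 60.3, 26.9 and 33.8, yet the groups stayed apart. Fbp2, a gluconeogenic phosphatase, read 2139 and 2036 against 104, 128 and 143, and Aurkc, an Aurora kinase of germ cells, 1132 and 1222 against 55.0, 99.6 and 73.4. Srgn, the core protein of a secretory proteoglycan, read 1067 and 1223 against 52.8, 57.2 and 3.33 (log2 4.42 ± 0.95, adjusted p = 0.00357).

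Large falls were led by Ntn1, the axon guidance cue netrin-1, at 192 and 159 in RA-treated cells and 2039, 2198 and 2622 in controls, 13-fold lower (log2 −3.70 ± 0.17, adjusted p = 3.33e-09). Mt1, metallothionein, which binds zinc and copper, read 1436 and 1218 against 19416, 12486 and 17199 (log2 −3.61 ± 0.20). Ddx58, the viral RNA sensor RIG-I, read 118 and 219 against 1233, 1867 and 1551, and Liph, a lipase, 121 and 126 against 1117, 972 and 1041. The cell cycle kinase gene Cdk6 read 89.4 and 138 against 619, 1086 and 705, Tgfb1 179 and 117 against 1027, 704 and 895, and Pdgfc, a ligand of PDGFRA, 198 and 109 against 1226, 709 and 694.

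Otx2, a homeobox factor of the epiblast and anterior brain, lay under 17 on both RA-treated arrays against 1352, 215 and 120, and its call was lost without either of them (adjusted p = 0.0876 and 0.0897). The calls for Gpx2 and S100a6 were lost without RA-treated array 1 (adjusted p = 0.18 and 0.0714), that for Nptx2 without array 2 (adjusted p = 0.0578) and that for Esrp1 without either array (0.0538 and 0.0577). Gpx2 was also lost without control replicate 2 or 3 (adjusted p = 0.0691 and 0.0529).

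Values at 8 h of RA in the same knockout cells placed the genes in time. The 8 h comparison shares its control arrays with the 72 h comparison, so the values are given side by side with no test between the 2 sets of calls. At 8 h, 109 genes were called against control (0.957%; 98 higher, 0.861%, and 11 lower, 0.0966%). Directly compared, 72 h and 8 h of RA differed in 2188 genes (19.2%), with 1445 higher at 72 h (12.7%) and 743 lower (6.52%).

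Cdx1 was already high at 8 h, at 1009, 401 and 806, against 1292 and 875 at 72 h. Stra8 stood at 1238, 1875 and 2192 at 8 h and 13279 and 12608 at 72 h, and Cyp26a1 at 193, 216 and 193 at 8 h and 2873 and 3075 at 72 h. Gata6 read 175, 154 and 223 at 8 h, above all its controls. Among HoxB genes, Hoxb4 read 196, 196 and 142 at 8 h against controls of 62.7, 72.2 and 53. It was called higher at 8 h by limma (log2 1.5, adjusted p = 0.0045). Hoxb2 was dim at 59.8, 143 and 66.6, and Hoxb6 and Hoxb5 lay near or under the floor on all 8 h arrays. Pdgfra (at most 20.6), Sox17 (at most 35.0) and Dab2 (70.8, 97.1 and 88.5) were close to their control values at 8 h. Col4a1 and Crabp2 differed from control by 0.36 and 0.13 on the log2 scale at 8 h.

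**Figure D4:**
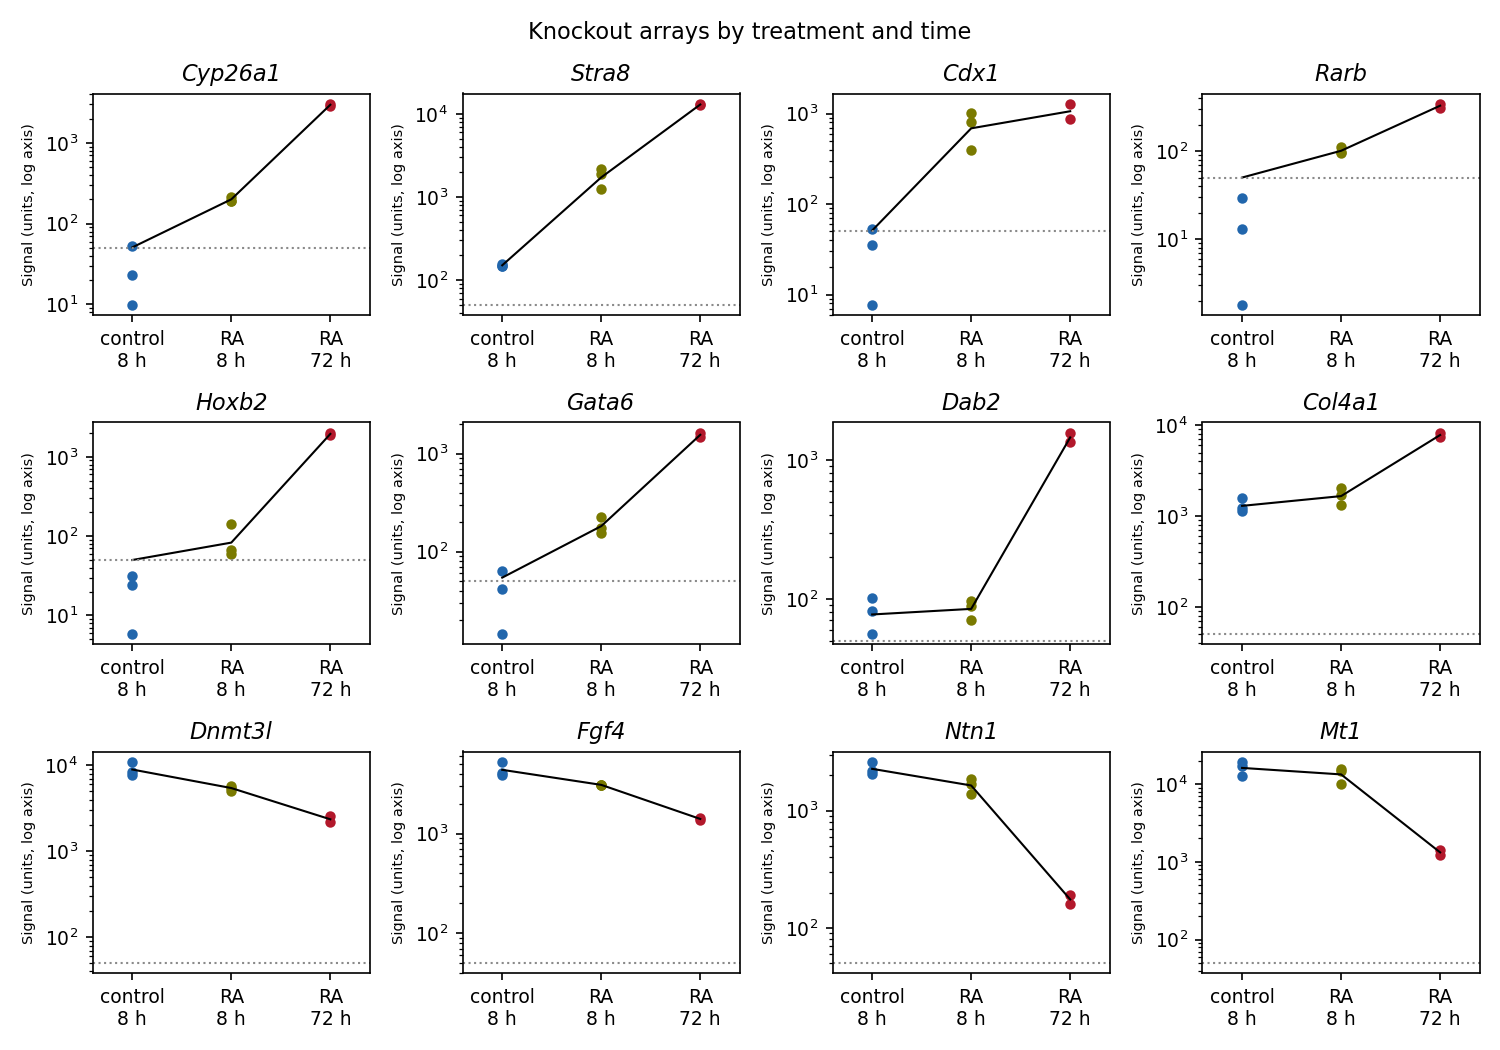
Signal intensity (log axis) of 12 genes on knockout arrays under control treatment (3 arrays), 8 h of RA (3 arrays) and 72 h of RA (2 arrays). Points are arrays, the line joins group means of log2 values after the floor of 50 (dotted), and Cdx1 reads 401 to 1009 at 8 h beside 1292 and 875 at 72 h.

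Wild-type cells gave a like response on arrays of their own. At 72 h of RA 2814 genes were called against wild-type control (24.7%), 1830 higher (16.1%) and 984 lower (8.64%). Of the genes that rose in knockout cells, 1206 rose in wild type as well, 71.7% of the knockout's and 65.9% of the wild type's. Both fell for 631, 67.1% and 64.1% of each set, and 0 genes were called in opposite directions. Across tested genes the 2 sets of log2 differences correlated with Pearson's r of 0.812 and Spearman's rho of 0.778, as a description, since genes are not independent replicates.

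By list, RA-induced targets gave 15 higher genes in knockout cells and 15 in wild type, with medians of 2.99 and 3.43. Hox and Cdx genes gave 13 and 14 (medians 2.84 and 2.8), and endoderm factors 9 and 9 (medians 3.02 and 2.26). In these lists 3 of 17, 11 of 16 and 2 of 10 tested genes, in that order, reached the filter only with 72 h arrays. Of the pluripotency genes 10 were lower in knockout cells and 12 in wild type. Trophoblast genes gave 0 calls in knockout cells and 4 higher in wild type, and keratin and junction genes 6 higher in knockout cells and 10 in wild type. These counts are a description, as 3 of 8 and 3 of 17 tested genes reached the filter only with 72 h arrays. For Krt7, in both lists, it took the 2 wild-type RA arrays. Gata3 lay under 50 on all 5 knockout arrays and read 159 and 118 in RA-treated wild-type cells. Krt7 and Eomes of the trophoblast list were among the genes whose changes differed between the genotypes, called in 6 of 16 and 5 of 19 alternatives. The library labelled as wild-type control replicate 1 went against its LIF label too, with Socs3 at 367 there and 4484 and 3792 on the other wild-type controls.

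The knockout change differed from the wild-type change in 39 genes (0.342%), with 3 in which the knockout change was the higher (0.0263%) and 36 in which it was the lower (0.316%). Of the 36, 33 rose in wild type, 8 rose in knockout cells and 12 stayed under the floor on all 5 knockout arrays. For those 12 the knockout change is fixed at 0 by the floor, and the difference restates the wild-type rise. Of the 39, 21 reached the filter only with the 2 wild-type RA arrays. This count moved widely with the processing, from 7 to 188, and leaving out single arrays gave 1 to 28. The count of 1 came without wild-type RA array 2 and likewise without knockout RA array 2. At an unadjusted p under 0.05 the count was 645.

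Smooth muscle and actin genes were one group among them. Of 16 tested, 5 rose in knockout cells and 13 in wild type, and 5 differed between the genotypes. Tagln, Cnn1 and Myl9 reached the filter only with the wild-type RA arrays, so these counts are a description. The feeder marker check above covered the 5 knockout arrays, and feeder RNA on the wild-type arrays was not tested. Tagln, an actin-binding protein of smooth muscle, read 67.5 and 128 in RA-treated knockout cells against 12.2, 4.90 and 4.67 in knockout controls, and 3654 and 4552 in RA-treated wild-type cells against 38.9, 46.2 and 7.45 in wild-type controls. The knockout change minus the wild-type change was −5.46 ± 0.34 log2 units (adjusted p = 9.38e-07), a size that depends on the floor, as controls of both genotypes lay under it. This was called under all 19 alternatives that gave a value. Within knockout cells its rise of 0.89 was lost without RA-treated array 2 (adjusted p = 0.284).

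Acta2, smooth muscle actin, read 158 and 152 in RA-treated knockout cells against 133, 171 and 171, and 1859 and 3757 in RA-treated wild-type cells against 186, 179 and 208. Its difference of −3.81 (adjusted p = 0.0209) held in 11 of 18 alternatives. The regulatory myosin chain gene Myl9 read 57.3 and 65.2 against 7.86, 59.7 and 32 in knockout cells and 550 and 620 against 92.6, 54.2 and 22.4 in wild type (difference −3.01, adjusted p = 0.012). The tropomyosin gene Tpm1 read 1021 and 987 against 956, 640 and 775 in knockout cells and 5640 and 6896 against 1356, 982 and 771 in wild type. Calponin, Cnn1, stayed under 50 on every knockout array and read 193 and 221 in RA-treated wild-type cells. Cald1 was called higher in both genotypes (2377 and 2512 against 391, 262 and 416 in knockout cells, log2 2.81, and 3.22 in wild type). Its knockout call was lost with the median of its probe sets (log2 1.76, adjusted p = 0.0777). The same choice lost the knockout calls for Tpm2 (log2 0.49, adjusted p = 0.21), Tln1 (0.42, 0.23) and Ccn1 (0.15, 0.771).

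The 3 genes with a higher change in knockout cells were Gata6, Lefty1 and Olig3. Gata6 reached 1636 and 1472 in RA-treated knockout cells and 1297 and 932 in RA-treated wild-type cells, with controls of 14.4, 63.9 and 41.2 in knockout and 165, 220 and 369 in wild type. Its difference of 2.63 ± 0.53 (adjusted p = 0.0473) was called in 4 of 19 alternatives. Lefty1 read 3408 and 3060 against 625, 344 and 506 in knockout cells and 2727 and 2826 against 1058, 1354 and 1241 in wild type, and was called in 6 of 19. Olig3, a neural tube factor, read 263 and 248 against 2.80, 59.7 and 13.2 in knockout cells. It was called in 7 of 17.

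Ntn1 and Mt1 fell further in knockout than in wild-type cells. In RA-treated wild-type cells Ntn1 read 528 and 462 against 1843, 1975 and 2338, and Mt1 2741 and 2654 against 11647, 9489 and 13328. The differences were −1.65 (adjusted p = 0.00885) and −1.53 (adjusted p = 0.0334). That of Ntn1 was called in 15 of 19 alternatives and that of Mt1 in 6 of 19. The other endoderm factors, RA targets and Hox genes were not among the 39.

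**Figure D5:**
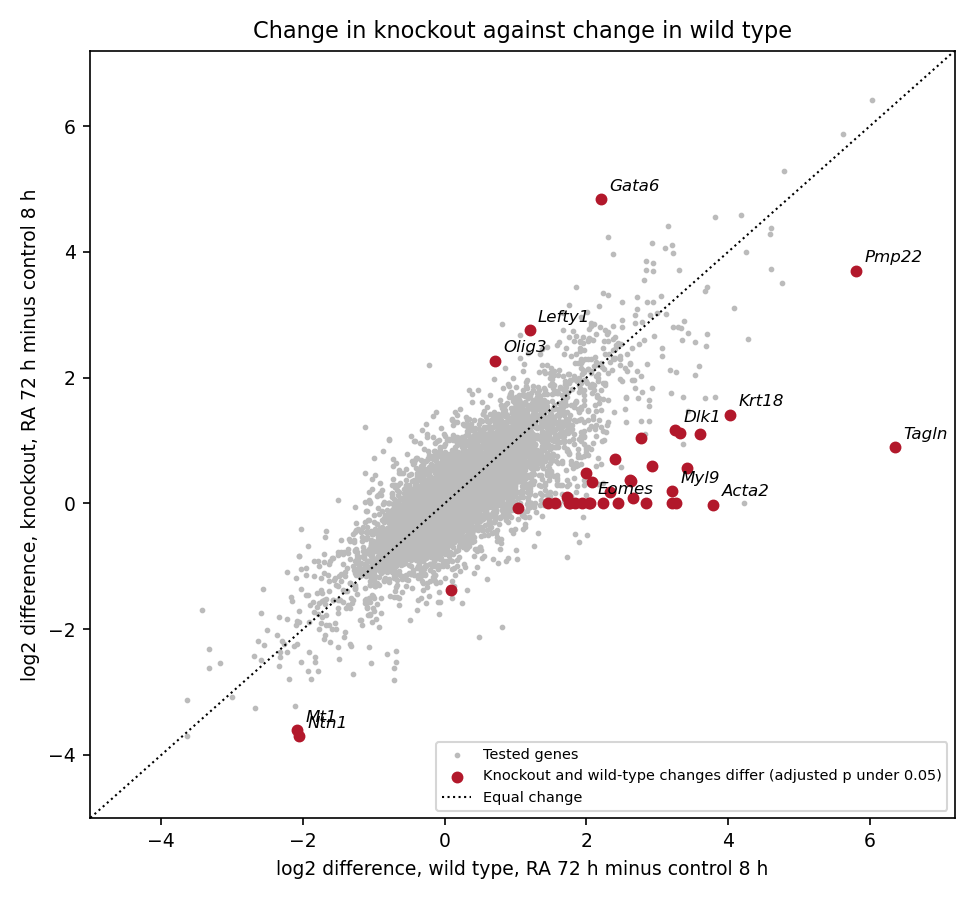
Log2 difference at 72 h of RA against control in knockout cells (vertical axis) and wild-type cells (horizontal axis) for each tested gene, with the 39 genes whose changes differed by limma (adjusted p under 0.05) in red and equality as a dotted line. Tagln lies at 0.89 in knockout cells and 6.35 in wild-type cells, and Gata6 at 4.84 and 2.21.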

How the data were processed

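RNA of 18 samples was labelled as biotin cRNA and hybridised to Affymetrix arrays, 1 array a sample. The deposited values are linear MAS5 signal intensities, per the submitters' processing notes; neither version nor scaling is stated there. Each array was rescaled so that its mean, with the top and bottom 2% left out, was 500, floored at 50 and taken to log2. Of 45101 probe sets, 34958 carried 1 gene symbol, 932 several and 9211 none; 34754 matched RefSeq (GRCm38.p6), and the brightest probe set stood for each of 18194 genes. The 11388 genes reaching 100 on at least 2 arrays were fitted with limma 3.58.1 in R 4.3.3 (lmFit, eBayes with intensity trend; 16 arrays of 6 replicated groups, 10 residual degrees of freedom) and p-values adjusted by Benjamini-Hochberg at 0.05. ± is a standard error. The fit was checked on simulated data with normal noise and neither floor nor filter applied, so that check does not cover genes at the floor. A fold against a group at the floor is a lower bound.

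Named genes were Cyp26a1, the 20 largest rises and falls without group overlap, up to 6 members per list by adjusted p, and the 10 genes leading the genotype difference; further list members were named after their values were seen. Members and lists were chosen with earlier results of these data known. Some genes belong to several lists, so the counts of different lists are not independent. Nothing says that repeats are separate cultures, so p-values cover only how these samples vary, possibly for technical reasons, and the number of arrays limits precision. Deviations of same-numbered RA and control arrays correlated at 0.178 and 0.145. With 2 RA arrays both figures come from the same difference between those arrays, so they do not establish pairing. Alternatives were other normalization, floor, filter, probe set choice, LIF labels, replicate block and leaving out each array.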

Additional observations from a re-analysis of the deposited data

Results flagged for a closer look

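The response to 72 h of RA differed between knockout and wild-type cells in 39 genes by limma's test of the difference, adjusted over all genes. The differences below are the knockout change minus the wild-type change on the log2 scale. Among actin and smooth muscle genes they were −5.46 for Tagln, −3.26 for Acta1, −2.05 for Cnn1, −3.01 for Myl9, −2.26 for Tpm1 and −3.81 for Acta2. Acta1, Cnn1, Gbp2 and Cd44 stayed under the floor of 50 on all 5 knockout arrays, so their knockout change is 0 by construction and the values given restate the wild-type rise. Tagln, Myl9, Pdzrn3 and Ets1 likewise reached the filter only with the 2 wild-type RA arrays. Acta1 read 581 and 504 in RA-treated wild-type cells, against 9.50, 30.6 and 71.7 in wild-type controls. Other genes with a lower change in knockout cells were Ntn1 (−1.65), Pdzrn3 (−2.14), Anxa3 (−2.2), Gbp2 (−1.94), Cd44 (−1.84), Ets1 (−2.23), Pmp22 (−2.11), Dlk1 (−2.08), Mt1 (−1.53), Krt18 (−2.62) and Eomes (−2.04). Of 19 alternatives, Eomes was called in 5, Krt18 in 6 and Dlk1 in 9, against all 19 for Tagln. The change was higher in knockout cells for Olig3 (1.55), Lefty1 (1.56) and Gata6 (2.63). No cause of these differences was tested.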

How the results depend on the processing

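No named gene with a call changed sign under an alternative, but the balance of some lists did. Immediate early and stress genes, 3 higher and 2 lower, became 2 higher and 3 lower with quantile normalization and without control replicate 1. Glycolysis genes called higher went to 0 without RA array 2, against 4. The count of 2622 changed genes was 1188 with a 2-fold minimum (916 higher, 272 lower) and 1358 to 2140 when single arrays were left out (929 to 1426 higher, 429 to 735 lower). A replicate block raised it to 3747, of which 2610 were among the 2622, and the block raised the genes called lower to 1520. Quantile normalization gave 2379 genes, 2167 of them shared, moved the median of all genes to −0.002, and left 56.7% of calls higher against 64.1%. The genotype count of 39 was 18 with quantile normalization, 188 with a floor of 100, 7 with log2 of signal plus 32, 123 with no filter, 11 with a filter at 200, 83 with no intensity trend, and 1 to 28 with single arrays left out. Against 8 h of RA the count was 943 with a 2-fold minimum and 1011 to 1901 with arrays left out. In wild type these were 1262 and 1456 to 2621. Genes at the floor of 50 have no order.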
